A study of Mus musculus with 8 samples.

Results

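Heme oxygenase 1 and the NRF2 antioxidant genes were followed in mouse splenic B cells sorted by whether they transcribed Il10. The set holds 10 genes: Hmox1, Nqo1, Gsr, Gclc, Gclm, Txnrd1, Srxn1, Prdx1, Nfe2l2 and Keap1. They were found by symbol through the GENCODE M21 annotation, and all 10 had a row among the 26589 genes of the deposited table. The 8 bulk RNA-seq libraries come from IL-10-eGFP Tiger mice, in which a green fluorescent reporter marks Il10 transcription. Splenic B cells of these mice were purified and cultured for 48 h with lipopolysaccharide at 3 µg/ml, in medium that held glutamine and 2-mercaptoethanol, a reducing agent. Both groups share that strain, stimulus and medium. They differ in the sort: 4 libraries hold IL-10+ cells and 4 hold IL-10- cells, with replicates numbered 1 to 4 in each. The ages of the mice are not given in the labels, and a treatment tag that reads untreated goes against the described stimulation, which was followed here. Whether a replicate number marks a mouse or a culture is not stated, so the p-values speak only of library-to-library spread, part of which may be technical.

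NRF2, the product of Nfe2l2, is a transcription factor that turns on genes against oxidants and reactive chemicals. In resting cells KEAP1 binds NRF2 and hands it to a CUL3 ubiquitin ligase for destruction, and oxidants that modify cysteines of KEAP1 let NRF2 accumulate. NRF2 then pairs with small MAF proteins on antioxidant response elements, which the repressor BACH1 can occupy in its place. HMOX1 opens the heme ring and yields biliverdin, carbon monoxide and iron. GCLC and GCLM form the enzyme that starts glutathione synthesis, GSR returns oxidised glutathione to its reduced form, and TXNRD1 does the same for thioredoxin. PRDX1 breaks down hydrogen peroxide, SRXN1 repairs over-oxidised peroxiredoxins, and NQO1 reduces quinones.

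Promoter sequences were available from RefSeq (build GRCm38.p6) for 7 of the 10 genes, with 9 start sites in all. Hmox1, Gsr and Gclc have no entry. Each window runs from 250 bases before to 50 bases after a start site. The core of the antioxidant response element was searched as TGACNNNGC on both strands (GCNNNGTCA when read from the other strand), and the AP-1 motif as TGANTCA. The motifs can overlap. The core occurred in 5 of the 9 windows, those of Gclm, Txnrd1, Srxn1, Prdx1 and Nfe2l2, and in 12.4% of the 32851 windows of all genes. AP-1 letters occurred in the windows of Srxn1 and Prdx1, against 7.81% of all windows. A match is a description of letters and no evidence of binding. The upstream bases of these 5 genes follow, 5′ to 3′ on the gene's strand, up to the start site or to the nearest annotated exon of the gene, with matches in capitals. They are shown because their genes carry the same core but went in different directions. In IL-10+ libraries Nfe2l2 was lower and the other 4 were higher in every replicate number, as described further on. Nqo1 and Keap1 have windows without the core, and in every number Nqo1 was higher and Keap1 lower. A link between the core and the direction was not tested. Prdx1 has 2 AP-1 matches, of which the one at -131 lies inside the core (first base at -133 from the start site) and the other, at -237, stands apart from it. The core match of Srxn1 lies 29 bases past the start site and is not printed, so its capitals are AP-1 matches only. Txnrd1 is shown at 1 of its 3 start sites, since the other two lack the core.
Gclm (chr3:122245307-122245556, plus strand): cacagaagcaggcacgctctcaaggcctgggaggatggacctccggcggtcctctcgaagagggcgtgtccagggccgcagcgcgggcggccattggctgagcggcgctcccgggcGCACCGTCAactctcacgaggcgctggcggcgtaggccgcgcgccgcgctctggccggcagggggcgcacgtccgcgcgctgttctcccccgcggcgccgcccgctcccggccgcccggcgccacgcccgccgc
Txnrd1 (chr10:82858956-82859178, plus strand): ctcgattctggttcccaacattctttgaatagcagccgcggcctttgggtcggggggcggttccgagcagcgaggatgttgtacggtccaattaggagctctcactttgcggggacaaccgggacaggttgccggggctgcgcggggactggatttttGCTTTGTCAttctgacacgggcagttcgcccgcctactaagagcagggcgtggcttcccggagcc
Srxn1 (chr2:152105274-152105515, plus strand): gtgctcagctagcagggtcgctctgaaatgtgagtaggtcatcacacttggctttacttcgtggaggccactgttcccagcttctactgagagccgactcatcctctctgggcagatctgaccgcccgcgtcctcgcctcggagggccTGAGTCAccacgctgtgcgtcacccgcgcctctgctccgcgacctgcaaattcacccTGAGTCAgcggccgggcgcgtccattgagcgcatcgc
Prdx1 (chr4:116685349-116685543, plus strand): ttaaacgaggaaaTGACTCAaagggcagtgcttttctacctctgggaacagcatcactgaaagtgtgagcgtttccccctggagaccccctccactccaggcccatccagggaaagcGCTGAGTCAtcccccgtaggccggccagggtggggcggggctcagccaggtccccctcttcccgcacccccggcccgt
Nfe2l2 (chr2:75704664-75704913, minus strand): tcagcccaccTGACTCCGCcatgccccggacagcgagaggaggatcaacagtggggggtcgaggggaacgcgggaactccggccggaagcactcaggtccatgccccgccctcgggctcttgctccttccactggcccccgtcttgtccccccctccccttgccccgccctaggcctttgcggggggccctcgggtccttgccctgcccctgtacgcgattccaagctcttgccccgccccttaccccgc

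Levels are given in FPKM, which scale reads to the length of a gene and the size of a library. The length that gave whole reads was that of all annotated exons of a gene, so levels can be compared between genes only roughly. Library totals worked back from the values were 27380398 to 29968285 reads, and 1 read in 1 kb was worth 0.0334 to 0.0365 FPKM. The cells carried B cell transcripts in every library, at lower levels in IL-10+ cells for most of the 8 listed markers: none rose and 4 fell (1 and 7 under the block), their median log2 change was -0.51, and they summed to 1315 to 1678 FPKM in IL-10+ and 1529 to 2101 FPKM in IL-10- libraries. The most abundant, Cd79a, a B cell receptor subunit, stood at 593.1 ± 62.0 FPKM in IL-10+ cells, against 531.5 ± 79.3 FPKM in IL-10- cells (SD, n = 4), and its partner Cd79b at 315.0 ± 34.2 and 358.8 ± 59.3 FPKM. Both passed only with the block (limma adjusted p = 0.385 and 0.383 without it, 0.0120 and 0.0197 with it), Cd79a as higher and Cd79b as lower. For several genes below, libraries numbered 3 and 4 differed from those numbered 1 and 2 whichever way the cells were sorted. Each member is therefore given by its values, by limma's test without the replicate number, and by limma's test with the number as a block. For other genes tested here the blocked value is given where it changes the call.

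Hmox1 was higher in IL-10+ cells in every replicate number and had the largest change among the tested members. Nqo1 and Gsr also passed as higher, while Gclm, Txnrd1 and Prdx1 were higher in 4 of 4 numbers and passed only once the replicate number was in the fit. Gclc, Nfe2l2 and Keap1 were slightly lower in 4 of 4 numbers. Of the 9 members that passed the filter of at least 1 FPKM in at least 4 libraries, 3 rose and none fell at an adjusted p under 0.05. Of the 11329 tested genes 19.7% were called, 10.6% as higher and 9.18% as lower. With the replicate block 6 members rose and 1 fell, while 53.7% of all tested genes were called, 20.4% as higher and 33.3% as lower. Without the filter 2 of the 10 members were called, Hmox1 and Srxn1, both higher, against 8.17% of 26589 genes (5.05% higher and 3.11% lower). With the block and no filter 7 of 10 rose and none fell, against 20.8% of all genes called (8.81% as higher). The median log2 change of FPKM + 1 was 0.38 over these 9 genes and -0.06 over all tested genes. In the 2 tested members Hmox1 and Nqo1 the values of the groups did not overlap, as in 25.2% of all tested genes. Srxn1, the member left out by the filter, did not overlap either. Of the 9, Nqo1 reached 1 FPKM in all 4 IL-10+ and in 2 of 4 IL-10- libraries, so its entry leaned on the group where it is high, and the other 8 reached it in all 8 libraries. In bulk samples, fewer cells that make a transcript and less of it per cell cannot be told apart.

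**Figure D1:**
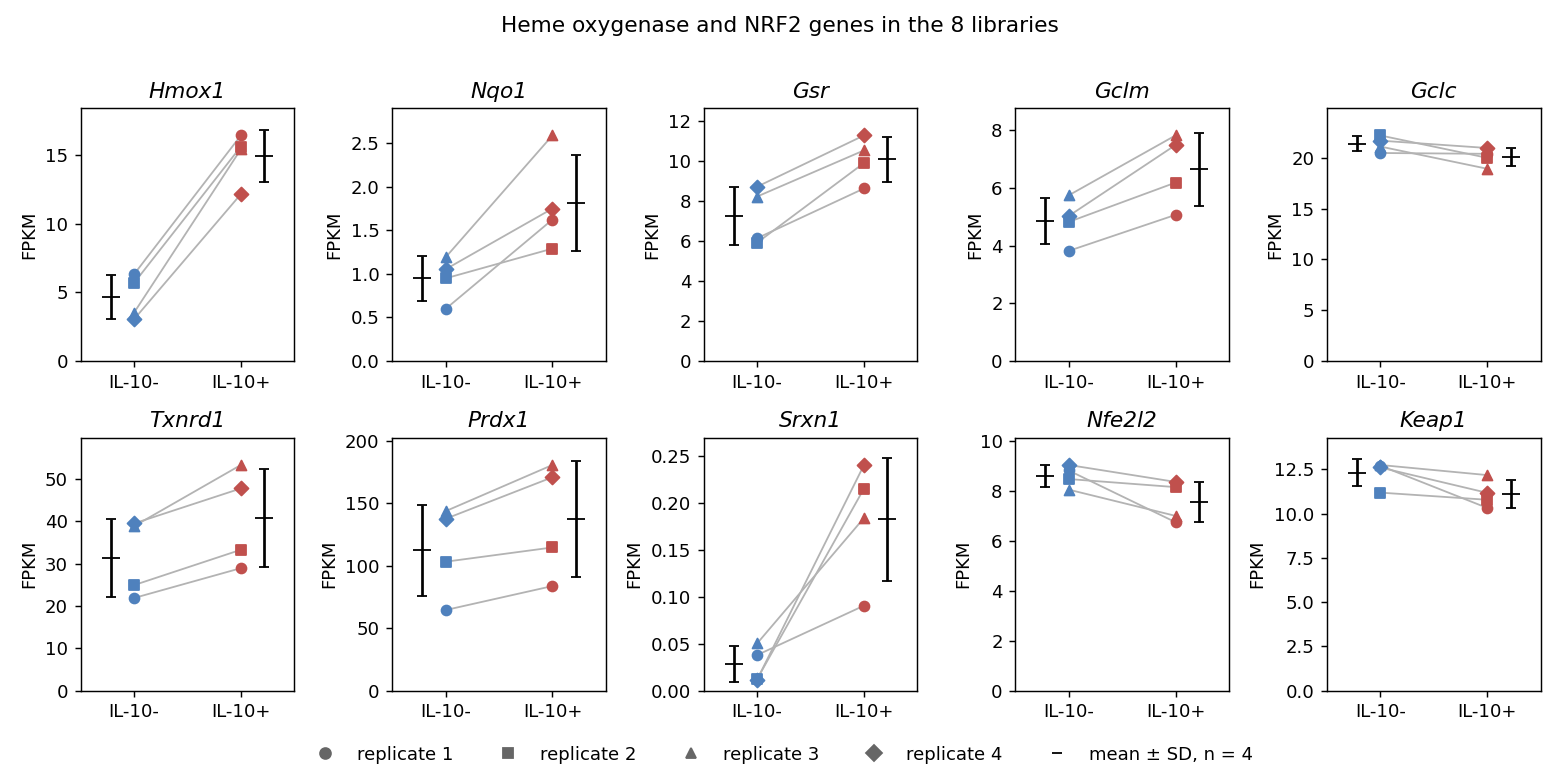
FPKM of each of the 10 genes in the 8 libraries, on a linear axis from 0. Points are libraries, with a marker shape for each replicate number and a line joining libraries of the same number, and bars are mean ± SD (n = 4). Hmox1 runs from 3.05 to 6.32 FPKM in IL-10- and from 12.2 to 16.4 FPKM in IL-10+ cells, while Txnrd1 and Prdx1 differ more between replicates 1 and 2 and replicates 3 and 4 than between the groups.

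Hmox1 lies on chromosome 8 at 75093621 to 75100589 of GRCm38, the build of every position given here (ENSMUSG00000005413, plus strand). Its level was 6.32, 5.69, 3.53 and 3.05 FPKM in IL-10- replicates 1 to 4 and 16.4, 15.6, 15.4 and 12.2 FPKM in IL-10+ replicates 1 to 4. The groups were far apart, and the lowest IL-10+ library, replicate 4, stood above every IL-10- library. The means were 14.9 ± 1.89 and 4.65 ± 1.60 FPKM (SD, n = 4), a 3.21-fold ratio. These values rest on 596 to 788 recovered reads in IL-10+ and 160 to 310 in IL-10- libraries. On the scale of the test, the log2 change of FPKM + 1 was 1.53 (SE 0.197, limma adjusted p = 0.000807, and 0.000247 with the replicate block). The call held in all 8 fits that left out 1 library, with log2 changes of 1.39 to 1.67. The ratio within a replicate number was 2.60 and 2.75 in replicates 1 and 2, and 4.37 and 3.99 in replicates 3 and 4, where the IL-10- levels were lower. In IL-10- cells Hmox1 ranked 8 of the 10 genes by mean level, and in IL-10+ cells it ranked 4.

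Its constitutive relative is Hmox2, which encodes the heme oxygenase present in most cells. Hmox2 stood at 21.8 ± 1.51 FPKM in IL-10+ cells, against 24.6 ± 1.64 FPKM in IL-10- cells (SD, n = 4), a log2 change of -0.16 that did not pass without the block (limma adjusted p = 0.164) and passed with it (0.00771). The ratio of Hmox1 to Hmox2 was 0.275, 0.241, 0.133 and 0.121 in IL-10- replicates 1 to 4. In IL-10+ replicates 1 to 4 it was 0.782, 0.777, 0.670 and 0.525. Hmox2 thus remained the more abundant heme oxygenase transcript in all 8 libraries. The difference in the log2 ratio was 1.91, higher in 4 of 4 numbers, with an exact two-sided permutation p of 0.0286, the smallest that 4 against 4 allows. Adjusted by Benjamini-Hochberg over the 3 ratios tested it was 0.0857. Exchange within replicate numbers can give no p below 0.125, and gave that value.

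Splenic red pulp macrophages are a tissue source of Hmox1, and their markers were low in both groups. The summed level of the 13 macrophage markers with a row in the table was 6.57 to 10.5 FPKM in IL-10+ and 6.58 to 11.1 FPKM in IL-10- libraries. Nearly all of it was Cd68, a lysosomal protein gene, at 7.78 ± 1.69 and 7.67 ± 1.89 FPKM (SD, n = 4). The other 12 markers stayed under 1 FPKM in every library, and none of the 13 was at 0 in all of them. The next most abundant, Lyz2 and Mrc1, had means of 0.293 ± 0.189 and 0.210 ± 0.0256 FPKM in IL-10+ cells, against 0.235 ± 0.214 and 0.154 ± 0.0357 FPKM in the IL-10- group (SD, n = 4). Erythroid markers were lower in sum in IL-10+ libraries, at 0.797 to 1.28 against 2.103 to 3.20 FPKM over 7 genes, of which the 1 tested, Hbb-bt, fell. Their most abundant genes were Hbb-bt, a β-globin (0.699 ± 0.183 against 2.12 ± 0.427 FPKM), Klf1 (0.216 ± 0.0926 against 0.136 ± 0.0543 FPKM) and Alas2 (0.0924 ± 0.0236 against 0.253 ± 0.0615 FPKM). The mean of Hbb-bt was under 1 FPKM in IL-10+ cells, so its entry through the filter leaned on the IL-10- group, where it is high. Plasmablast markers moved the way Hmox1 did: all 7 tested of 8 rose, the eighth, Tnfrsf17, was listed at 0 in the IL-10- libraries and stayed under 1 FPKM in the others, and the summed level was 1363 to 1385 FPKM in IL-10+ and 316.8 to 447.1 FPKM in IL-10- libraries. The leading ones were Mzb1 (889.2 ± 24.6 against 265.2 ± 44.7 FPKM), Xbp1 (187.8 ± 12.8 against 46.1 ± 10.7 FPKM) and Irf4 (143.0 ± 18.6 against 58.5 ± 5.47 FPKM). The part of plasmablast differentiation in the differences of Hmox1 and the other genes was not tested.

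**Figure D2:**
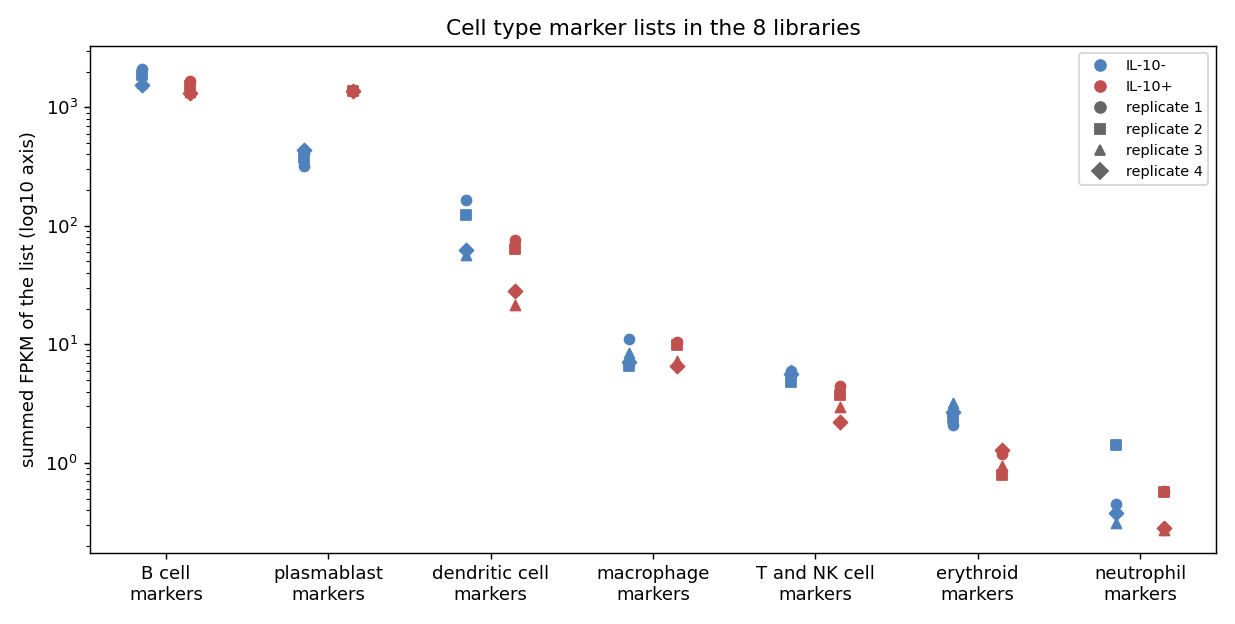
Summed FPKM of each cell type marker list in the 8 libraries, on a log10 axis, with IL-10- libraries on the left and IL-10+ libraries on the right of each list and a marker shape for each replicate number. Macrophage markers overlap between the groups at 6.57 to 11.1 FPKM, and plasmablast markers stand at 1363 to 1385 FPKM in IL-10+ against 316.8 to 447.1 FPKM in IL-10- libraries.

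The summed levels of dendritic cell and of T and NK cell markers were not higher in IL-10+ cells, and neutrophil markers were low in both groups. The dendritic list summed to 21.6 to 75.2 FPKM in the IL-10+ libraries and to 56.5 to 163.6 FPKM in the others. Of the dendritic list, the leading genes were Ccr7, a homing receptor that activated B cells also express, at 36.3 ± 25.0 FPKM in IL-10+ cells, against 88.0 ± 49.1 FPKM in IL-10- cells (SD, n = 4), Flt3 (8.81 ± 1.63 and 11.5 ± 2.32 FPKM) and Batf3 (1.92 ± 0.190 and 1.40 ± 0.191 FPKM). None of these 3 passed without the block (limma adjusted p = 0.143, 0.157 and 0.0561), and with it Ccr7 and Flt3 fell and Batf3 rose (0.000606, 0.000659 and 0.0212). The 5 others stayed under 1 FPKM in every library. The T and NK list summed to 2.21 to 4.43 FPKM in IL-10+ and 4.82 to 6.05 FPKM in IL-10- libraries, led by Lck (1.94 ± 0.495 and 4.86 ± 0.460 FPKM) and Trac (1.29 ± 0.759 and 0.593 ± 0.394 FPKM), while Cd3d stood at 0.0198 ± 0.0164 and 0.0487 ± 0.0372 FPKM. Neutrophil markers summed to 0.274 to 0.580 FPKM and 0.313 to 1.41 FPKM. Their leading genes were S100a9 (0.121 ± 0.143 and 0.386 ± 0.550 FPKM), Camp (0.235 ± 0.0940 and 0.161 ± 0.0807 FPKM) and S100a8 (0.0387 ± 0.0773 and 0.0757 ± 0.0658 FPKM).

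Nqo1, the quinone reductase (chromosome 8, 107388225 to 107403206), was expressed at a low level. It stood at 0.598, 0.949, 1.19 and 1.05 FPKM in IL-10- replicates 1 to 4 and at 1.62, 1.29, 2.59 and 1.75 FPKM in IL-10+ replicates 1 to 4. The groups did not overlap, but the highest IL-10- library (1.19 FPKM) and the lowest IL-10+ library (1.29 FPKM) were close. The ratio of the means was 1.91, on 56 to 116 against 26 to 52 recovered reads. Tested, the log2 change of FPKM + 1 was 0.52 (SE 0.156, limma adjusted p = 0.0481), and 0.86 with a pseudocount of 0.1. Omitting 1 library at a time ended the call in 7 of 8 cases (adjusted p up to 0.101), all but that of IL-10+ replicate 2, and it ended without the filter on low values (0.115). With the replicate block its adjusted p was 0.00815.

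Gsr, glutathione reductase (chromosome 8, 33652523 to 33698163), measured 6.15, 5.92, 8.23 and 8.72 FPKM in IL-10- replicates 1 to 4. In IL-10+ replicates 1 to 4 it stood at 8.63, 9.91, 10.5 and 11.3 FPKM. The groups overlapped slightly, since IL-10+ replicate 1 lay just under IL-10- replicate 4, yet within each number the IL-10+ library was 1.28 to 1.67 times as high. The log2 change was 0.44 (SE 0.131, limma adjusted p = 0.0490). Omitting 1 library at a time ended the call in 6 of 8 cases (adjusted p up to 0.118), all but those of IL-10+ replicate 1 and IL-10- replicate 4, and it ended with median-of-ratios scaling (0.0520) and without the filter (0.107). With the block the adjusted p was 0.00268, and Gsr also passed within replicates 1 and 2 (0.0367) and within 3 and 4 (0.0320). A small RNA gene lies within Gsr on the same strand.

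The subunits of glutamate-cysteine ligase went in different directions in IL-10+ cells, a contrast that did not pass as a ratio. The modifier was higher and the catalytic subunit slightly lower in 4 of 4 numbers. With all 8 libraries, neither passed without the block. Gclm, the modifier subunit (chromosome 3, 122245557 to 122270732), measured 3.81, 4.82, 5.74 and 5.02 FPKM in IL-10- replicates 1 to 4 and 5.06, 6.18, 7.81 and 7.48 FPKM in IL-10+ replicates 1 to 4. The ranges overlapped, but each IL-10+ library was 1.28 to 1.49 times as high as the IL-10- library of its number. Its log2 change was 0.38 (SE 0.142), which did not pass (limma adjusted p = 0.1005) and passed with the block (0.00121) or without IL-10+ replicate 1 (0.0361). In the 7 other fits that left out 1 library Gclm did not pass (adjusted p up to 0.227). Gclc, the catalytic subunit (chromosome 9, 77754535 to 77794485), averaged 20.1 ± 0.860 FPKM in IL-10+ cells, against 21.4 ± 0.745 FPKM in IL-10- cells (SD, n = 4). Its log2 change was -0.09 (SE 0.0584) and did not pass without the block (adjusted p = 0.350) or with it (0.0931). Gclm overlaps an antisense transcript and a processed pseudogene in the annotation, and whether reads were assigned by strand was not given in the sources used here.

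Set against Gclc, the ratio of Gclm to Gclc was 0.186, 0.217, 0.272 and 0.232 in IL-10- replicates 1 to 4 and 0.248, 0.309, 0.413 and 0.357 in IL-10+ replicates 1 to 4. In 4 of 4 numbers the IL-10+ library had the higher ratio, but the ranges overlapped, with IL-10+ replicate 1 below IL-10- replicate 3. The difference in the log2 ratio was 0.54, with an exact two-sided permutation p of 0.0571 (0.0857 adjusted over the 3 ratios). With 1 library left out, the exact permutation p, not adjusted over the ratios, ran from 0.0286 to 0.114. It was under 0.05 only without IL-10+ replicate 1, and highest without IL-10- replicate 1.

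Txnrd1 and Prdx1, the most abundant members, varied more with the replicate number than with the sort. Txnrd1, thioredoxin reductase 1 (chromosome 10, 82833951 to 82897712), measured 21.9, 24.9, 38.9 and 39.5 FPKM in IL-10- replicates 1 to 4. In IL-10+ replicates 1 to 4 it stood at 29.0, 33.3, 53.3 and 47.8 FPKM. Replicates 3 and 4 were higher than 1 and 2 in both groups, and the IL-10+ library was 1.21 to 1.37 times as high as its IL-10- partner in each number. The log2 change was 0.38 with an SE of 0.251 without the block (limma adjusted p = 0.345) and an SE of 0.0365 with it (adjusted p = 0.000616). The annotation places 3 other genes within or across Txnrd1, 1 of them the protein-coding Eid3 on the same strand.

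Prdx1, peroxiredoxin 1 (chromosome 4, 116685544 to 116700822), measured 64.5, 103.2, 143.6 and 137.5 FPKM in IL-10- replicates 1 to 4. In IL-10+ replicates 1 to 4 it stood at 83.7, 114.6, 180.6 and 170.8 FPKM. The ranges overlapped widely, and within the numbers the ratio was 1.11 to 1.30. The log2 change was 0.29 (SE 0.313, limma adjusted p = 0.567), and with the block 0.29 (SE 0.0421, adjusted p = 0.00272). Within replicates 3 and 4 alone Gclm, Txnrd1 and Prdx1 passed (adjusted p = 0.0266, 0.0256 and 0.0172), and within 1 and 2 alone they did not (0.250, 0.117 and 0.594). Of the 11329 tested genes, 2647 passed within replicates 3 and 4 and 1106 within 1 and 2. The difference between these sets was not tested.

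**Figure D3:**
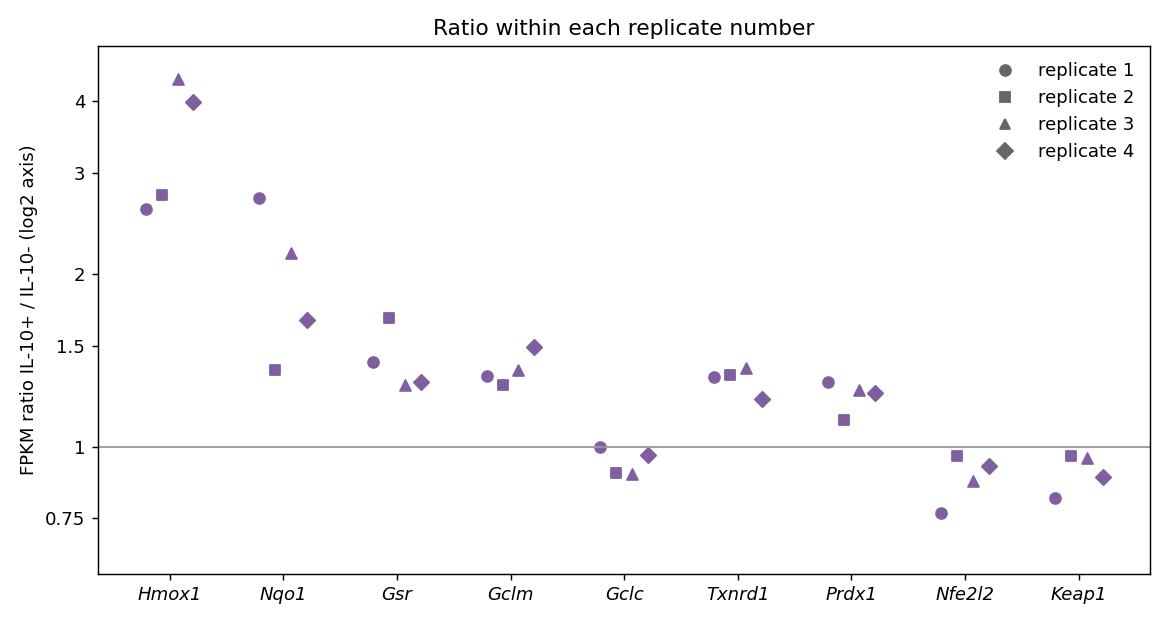
Ratio of IL-10+ to IL-10- FPKM within each replicate number for the 9 tested genes, on a log2 axis with a line at 1, and a marker shape for each number. Hmox1, Nqo1, Gsr, Gclm, Txnrd1 and Prdx1 lie above 1 and Gclc, Nfe2l2 and Keap1 below 1 in all 4 numbers (Gclc only just in replicate 1, at 0.996), with Hmox1 at 2.60 to 4.37.

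Srxn1, sulfiredoxin (chromosome 2, 152105516 to 152111376), was near the limit of detection. The recovered reads were 3, 1, 4 and 1 in IL-10- replicates 1 to 4 and 7, 17, 15 and 19 in IL-10+ replicates 1 to 4. All 4 IL-10+ libraries stood above all IL-10- libraries. Summed over a group and set against the read totals, 58 against 9 reads gave a 6.58-fold ratio, with an exact 95% interval of 3.24 to 15.1 that covers counting error only. Without the filter on low values the log2 change of FPKM + 1 was 0.20 (SE 0.0398, limma adjusted p = 0.0207, and 0.0374 with the block). At 0.0118 to 0.241 FPKM it was the lowest of the 10 genes in both groups, far below Prdx1, whose protein product it repairs.

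The regulators themselves were not higher in IL-10+ cells. Nfe2l2 (chromosome 2, 75675513 to 75704641) measured 8.82, 8.47, 8.05 and 9.04 FPKM in IL-10- replicates 1 to 4 and 6.74, 8.15, 6.998 and 8.36 FPKM in IL-10+ replicates 1 to 4. The ranges overlapped. Its log2 change was -0.17 (SE 0.0794) and did not pass (limma adjusted p = 0.183). It passed with the block (0.0463), and no longer when the block was combined with another scaling (0.0923 and 0.0981). Keap1, the inhibitor (chromosome 9, 21229730 to 21239361), averaged 11.1 ± 0.788 FPKM in IL-10+ cells, against 12.3 ± 0.752 FPKM in IL-10- cells (SD, n = 4). Its log2 change was -0.14 (SE 0.0710, adjusted p = 0.224, and 0.0540 with the block). An antisense transcript overlaps Keap1. The ratio of Nfe2l2 to Keap1 was 0.575 to 0.756 in IL-10+ and 0.632 to 0.758 in IL-10- libraries, with a difference of -0.04 in the log2 ratio (exact two-sided permutation p = 0.686, also after adjustment over the 3 ratios).

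**Figure D4:**
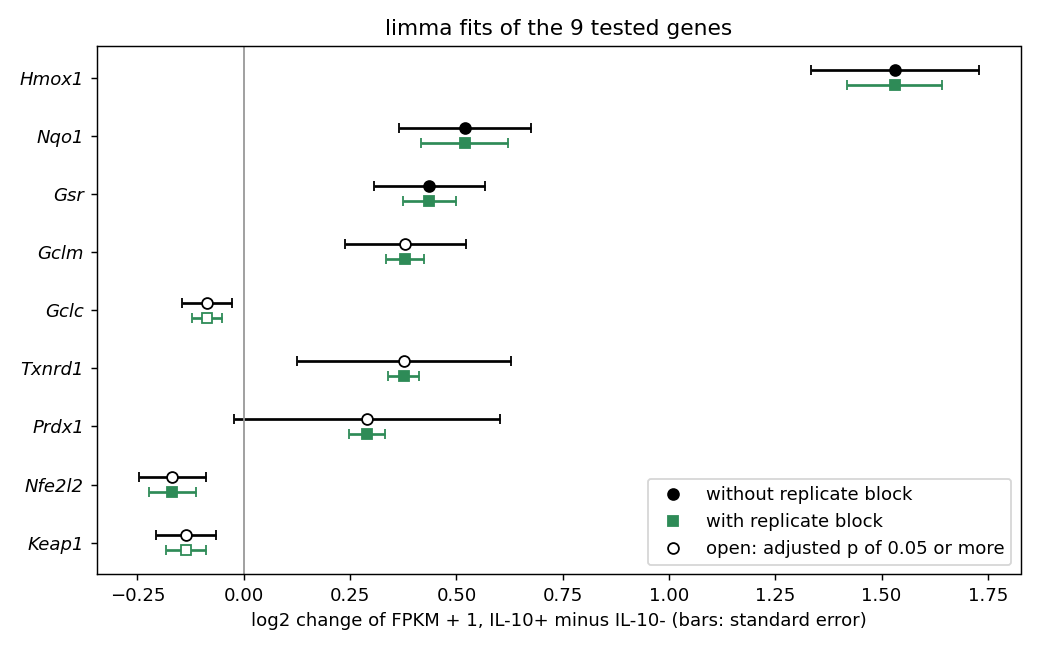
Log2 change of FPKM + 1 with its standard error for the 9 tested genes, in limma fits without (circles) and with (squares) the replicate number as a block, where filled symbols passed at an adjusted p under 0.05. The estimates are the same in both fits and the errors are smaller with the block, so that 3 symbols are filled without it and 7 with it.

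By level, Prdx1 was the most abundant member in both groups, followed by Txnrd1 and then Gclc. The ranges of Prdx1 and Txnrd1 did not overlap in either group, and those of Txnrd1 and Gclc overlapped in IL-10- cells only by the values of Txnrd1 in replicate 1 (21.9 FPKM) and Gclc in replicate 2 (22.2 FPKM). In IL-10- cells Keap1 came next at 12.3 FPKM, then Nfe2l2 and Gsr at 8.59 and 7.26 FPKM and Gclm and Hmox1 at 4.85 and 4.65 FPKM, and each of these pairs of neighbours overlapped. In IL-10+ cells Hmox1 (mean 14.9 FPKM) came next and stood above Gsr (10.1 FPKM), Nfe2l2 (7.56 FPKM) and Gclm (6.63 FPKM) in every library. Keap1 averaged 11.1 FPKM, and its highest value (12.17 FPKM, replicate 3) met the lowest of Hmox1 (12.16 FPKM, replicate 4). Keap1 overlapped Gsr, and Nfe2l2 overlapped Gclm. Nqo1 and Srxn1 were lowest in both.

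Of the 114 other genes of the pathway with a row in the table, 105 were tested, and 21 rose and 5 fell (38 and 29 under the block), and their median log2 change was 0.00 against -0.06 over all tested genes. Their shares can be read against the 10.6% and 9.18% of all tested genes given above, and under the block against 20.4% and 33.3%. The lists were drawn up by function, and several of their members are also known from protein folding in the endoplasmic reticulum.

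Among 15 regulators and partners of NRF2, 4 rose and 1 fell (6 and 4 under the block), and the list's median log2 change was 0.06. Bach1, the heme-sensing repressor of Hmox1, stood at 2.53, 2.15, 2.03 and 2.27 FPKM in IL-10- replicates 1 to 4 and at 6.33, 4.94, 5.57 and 4.78 FPKM in IL-10+ replicates 1 to 4. The groups were far apart, at a 2.41-fold ratio (log2 change 0.98, SE 0.0925, limma adjusted p = 0.000144), so Bach1 and its target Hmox1 were higher in the same libraries. Bach2, its relative and a repressor of plasma cell differentiation, fell to 5.56 ± 1.47 FPKM from 13.7 ± 1.48 FPKM (SD, n = 4), a log2 change of -1.19 (adjusted p = 0.000849). Sqstm1, which encodes the autophagy receptor p62 that binds KEAP1, stood at 56.2, 48.4, 45.2 and 40.8 FPKM in IL-10- and at 128.9, 109.1, 82.8 and 73.6 FPKM in IL-10+ replicates 1 to 4. It was 2.07-fold higher (log2 change 1.01, adjusted p = 0.00465), and Sqstm1 overlaps the gene Mrnip on the other strand. Syvn1, the ligase HRD1 of the endoplasmic reticulum, was 1.61-fold higher, at 103.8 ± 5.87 against 64.3 ± 4.61 FPKM (adjusted p = 0.000322). The fourth gene that rose was the small MAF gene Mafg, a binding partner of NRF2 and BACH1, at 12.6 ± 0.859 against 9.77 ± 1.05 FPKM (adjusted p = 0.0223). It was not called without any 1 of IL-10- replicates 2 and 3 and IL-10+ replicates 3 and 4, with adjusted p up to 0.0618. The small MAF genes Mafk and Maff passed only with the block, Mafk as lower and Maff as higher (limma adjusted p = 0.348 and 0.162 without it, 0.0288 and 0.0118 with it). Mafg overlaps Sirt7.

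In the list of heme and iron handling, 3 of 19 tested genes rose and 1 fell (5 and 6 under the block), and the list's median log2 change was -0.01. Ftl1, the ferritin light chain that stores iron, stood at 32.1, 43.7, 43.6 and 32.8 FPKM in IL-10- replicates 1 to 4 and at 65.0, 72.4, 76.3 and 71.6 FPKM in IL-10+ replicates 1 to 4. That was a 1.87-fold ratio without overlap (log2 change 0.90, limma adjusted p = 0.000978), although Ftl1 has 2 named pseudogenes in the annotation and the handling of shared reads was not given in the sources used here. For comparison, the ferritin heavy chain gene Fth1 stood at 573.5 ± 48.6 and 558.4 ± 34.6 FPKM (adjusted p = 0.790). Slc48a1, a heme transporter, was 1.54-fold higher, at 28.3 ± 2.08 against 18.4 ± 0.387 FPKM (SD, n = 4; adjusted p = 0.000370). Cpox, an enzyme of heme synthesis, was 1.51-fold higher, at 42.4 ± 1.21 against 28.0 ± 1.96 FPKM (adjusted p = 0.000408). Blvrb, named as a biliverdin reductase, fell from 7.64 ± 1.07 to 4.27 ± 0.306 FPKM (log2 change -0.71, adjusted p = 0.00115). The other biliverdin reductase gene, Blvra, stood at 7.71 ± 1.21 and 7.95 ± 1.14 FPKM (adjusted p = 0.860). Called genes of this list thus moved in both directions.

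Among genes of glutathione synthesis and use, 5 of 23 tested rose and none fell (9 and 2 under the block), and the list's median log2 change was 0.05. Gstt1, a glutathione transferase, was 2.02-fold higher, at 4.12 ± 0.951 against 2.03 ± 0.575 FPKM (SD, n = 4; limma adjusted p = 0.0131). Glrx, glutaredoxin, was 1.87-fold higher (3.93 ± 0.724 against 2.103 ± 0.334 FPKM, adjusted p = 0.00490). Mgst2, a membrane-bound glutathione transferase, was 1.75-fold higher (4.71 ± 0.603 against 2.69 ± 0.689 FPKM, adjusted p = 0.0107), and Gstt2 was 1.43-fold higher (31.3 ± 2.68 against 21.8 ± 0.960 FPKM, adjusted p = 0.00193). The fifth was Gpx7, a peroxidase of the endoplasmic reticulum (adjusted p = 0.0491, and up to 0.127 with 1 library left out, which ended the call in 7 of 8 cases).

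Among thioredoxin and peroxiredoxin genes, Txndc5 had the largest change of the tested genes in the 6 pathway lists. Of 20 tested, 5 rose and 1 fell (8 and 5 under the block), and the list's median log2 change was 0.02. Txndc5, a disulfide isomerase of the endoplasmic reticulum, was 2.99-fold higher, at 120.8 ± 7.12 against 40.4 ± 6.90 FPKM (SD, n = 4; log2 change 1.57, limma adjusted p = 5.11e-05). Selenos, a selenoprotein of the degradation machinery there, was 2.53-fold higher (143.4 ± 7.87 against 56.7 ± 3.70 FPKM). Prdx4, the peroxiredoxin of the secretory pathway, was 1.82-fold higher (29.6 ± 1.03 against 16.3 ± 1.44 FPKM, adjusted p = 0.000113), and Selenok, another selenoprotein of the endoplasmic reticulum, was 1.70-fold higher (52.4 ± 3.85 against 30.8 ± 2.98 FPKM). The others were Selenof, which rose, and Msra, a methionine sulfoxide reductase, which fell (adjusted p = 0.0315, and up to 0.0908 with 1 library left out, which ended the call in 7 of 8 cases). The cytosolic thioredoxin Txn1, the substrate of TXNRD1, stood at 245.5 ± 39.5 and 211.4 ± 38.0 FPKM (adjusted p = 0.3999, and 0.00174 with the block).

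No gene of NADPH supply passed without the block among 14 tested, and 3 rose and 6 fell with it. The most abundant, Shmt2 and Mthfd2 of the mitochondrial folate pathway, stood at 281.7 ± 52.0 against 263.8 ± 57.5 FPKM and at 89.5 ± 13.8 against 91.0 ± 22.3 FPKM (SD, n = 4; limma adjusted p = 0.741 and 0.989). With the block Shmt2 passed as higher (0.0427) and Mthfd2 did not pass (0.938). G6pdx, the entry enzyme of the pentose phosphate pathway, stood at 24.2 ± 4.75 against 24.3 ± 3.61 FPKM (adjusted p = 0.954). In the list of superoxide and peroxide genes, 4 of 14 rose and 2 fell (7 and 6 with the block). The risers were Ero1lb, an oxidase of disulfide formation that makes hydrogen peroxide (67.5 ± 4.94 against 25.96 ± 1.37 FPKM, 2.60-fold, adjusted p = 1.84e-05), its relative Ero1l (23.9 ± 4.59 against 16.3 ± 2.03 FPKM), the disulfide isomerase gene P4hb (214.9 ± 9.04 against 126.3 ± 16.2 FPKM) and Oxr1 (9.14 ± 0.539 against 6.09 ± 0.158 FPKM). Omitting 1 library at a time ended the call of Ero1l in 5 of 8 cases (adjusted p up to 0.0976), and it held without IL-10- replicate 1, IL-10+ replicate 3 or IL-10+ replicate 4. Those that fell were Rac2 and Ncf4, parts of the phagocyte NADPH oxidase, at 1.43-fold and 1.32-fold lower levels.

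**Figure D5:**
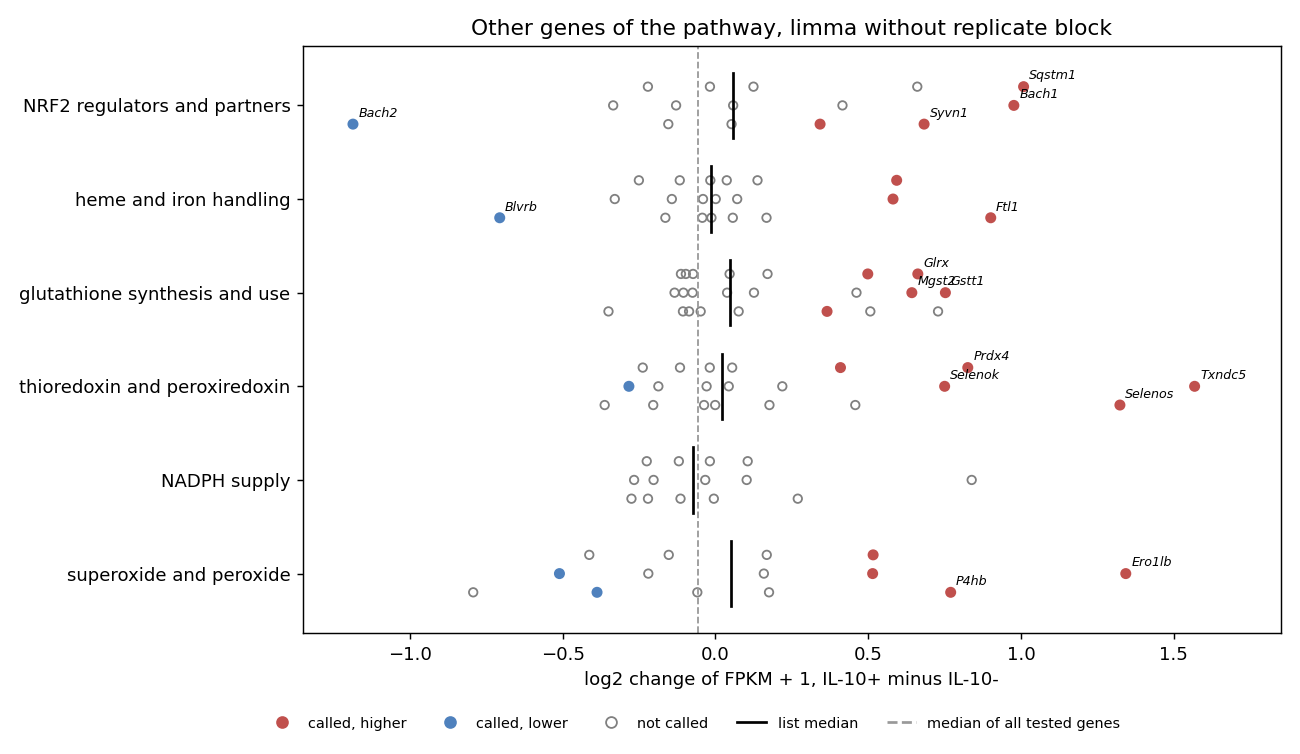
Log2 change of FPKM + 1 for each tested gene of the 6 pathway lists, in limma's fit without the block. Filled points passed at an adjusted p under 0.05, black bars are list medians and the dashed line is the median of all tested genes, -0.06. The list medians lie between -0.07 and 0.06, and the genes furthest to the right are Txndc5, Ero1lb and Selenos.

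The 5 genes whose log2 level was most like that of Hmox1 over the 8 libraries, among the 7342 tested genes whose mean reached 5 FPKM, were Gm10552 (Pearson r = 0.993), Zfand6 (0.993), Golga2 (0.991), Pon2 (0.991) and Etnk1 (0.990). Pon2, a paraoxonase of intracellular membranes, stood at 11.2 ± 0.779 FPKM in IL-10+ cells, against 5.92 ± 0.640 FPKM in IL-10- cells (SD, n = 4), and Gm10552, annotated as antisense, at 9.78 ± 0.896 and 5.47 ± 0.763 FPKM. The libraries share a sort and a replicate number, so these values largely describe a difference between 2 groups. Of the other members, Nqo1 and Srxn1 had means under 5 FPKM and were not compared. The rest were less like Hmox1: r was 0.52 for Gsr, 0.50 for Gclm, 0.19 for Txnrd1 and 0.04 for Prdx1. It was -0.69 for Nfe2l2, -0.71 for Keap1 and -0.71 for Gclc. In Hmox1 replicates 1 and 2 were the higher libraries within both groups, whereas in Txnrd1, Prdx1 and Gclm they were the lower ones.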

How the data were processed

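Messenger RNA of 8 libraries was analysed from the table of FPKM values that the authors deposited. The submitters' processing notes name HISAT2 2.1.0, HTSeq 0.6.0 and the build mm10. Annotation release, strand setting and filters were not given in the sources used here. Symbols, positions and exon lengths came from GENCODE M21 (GRCm38, the same build), which held 26517 of 26589 identifiers. Multiplied by exon length and 1 total per library, 93.5% to 93.6% of nonzero values came out as whole reads within 0.05. log2(FPKM + 1) was fitted by limma 3.58.1 (R 4.3.3, trended variance) for the 11329 genes that reached 1 FPKM in 4 or more libraries. This scale understates the change of low genes. A call needed a p under 0.05 after Benjamini-Hochberg adjustment over all tested genes. Same-numbered libraries deviated together (correlations of 0.712, 0.583, 0.621 and 0.700 for numbers 1 to 4, each library closest to its own number), so fits with the number as a block stand beside those without. The labels do not state this pairing, which was read from the values. Ratios were compared by exact permutation in Python 3.11.15. The fit without the block was tested on simulated data that held no shared replicate effect. The fit with the block was not tested in this way. Members and gene lists were chosen with earlier results of these data known. Named genes were all members, up to 4 called genes per list by size of change (or the 2 most abundant where fewer than 2 passed), 3 markers per cell type and 5 genes most like Hmox1. Among the markers, 1 is not reported here. Hmox2, Fth1, Blvra, Mafg, Txn1, G6pdx and other genes beyond this rule were named after their values were seen. Of the listed genes, Gpx8, C1qb, C1qc, Timd4 and Hba-a2 had no row under these symbols.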

Additional observations from a re-analysis of the deposited data

Results flagged for a closer look

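In 2 cases a level stood apart from the other 3 libraries of its group, by a gap of more than 0.829 of the group's range. Keap1 was 11.2 FPKM in IL-10- replicate 2, where the others lay between 12.6 and 12.7 FPKM. Gstt1 was 2.89 FPKM in IL-10- replicate 2, where the others lay between 1.68 and 1.79 FPKM. Chance gives about 1 such gap in 20 groups, and 70 groups were examined.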

How the results depend on the processing

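Over all genes 2236 were called, and 1621 to 2055 when 1 library was left out. The replicate block gave 6083 calls (5724 under median-of-ratios scaling, and 5666 when library size was taken without immunoglobulin and mitochondrial genes). With the block and no filter on low values, an alternative added after seeing the data, there were 5533. Without the block, 1106 were called within replicates 1 and 2 and 2647 within replicates 3 and 4. Of the members 3 were called, and 1 to 3 with 1 library left out, 7 with the block, 6 with the block under either scaling, 7 with the block and no filter, and 5 within replicates 3 and 4. Of the other pathway genes 26 were called, 22 to 28 with 1 library left out, 67 with the block, 61 with the block under either scaling, and 59 with the block and no filter. The cause of these differences was not tested. The block ended no call among members and named genes. The Hmox1 to Hmox2 ratio (difference 1.91) had an exact permutation p of 0.0286, or 0.0857 adjusted over the 3 ratios. Exchange within replicate numbers gave 0.125, the smallest p it can give, so that test could not pass. With 1 library left out, the Gclm to Gclc difference was 0.42 to 0.67, that of Hmox1 to Hmox2 1.72 to 2.11 and that of Nfe2l2 to Keap1 -0.093 to 0.039 (positive without IL-10+ replicate 3). Mthfd2, uncalled throughout, went from a log2 change of -0.01 to 0.026 and 0.029 under the scalings with or without the block, to -0.10 to 0.14 with 1 library left out and to 0.085 within replicates 3 and 4. Scaling moved the median log2 change of all genes from -0.06 to -0.03, and no member changed direction. Genes of a few reads, such as Srxn1, are limited by depth.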

Other observations

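Slc7a11, which encodes the cystine importer that feeds glutathione synthesis, fell under the filter on low values and was singled out after its values were seen. It stood at 0.172, 0.254, 0.0689 and 0.129 FPKM in IL-10- replicates 1 to 4 and at 0.960, 0.992, 0.515 and 0.559 FPKM in IL-10+ replicates 1 to 4, without overlap. The recovered reads were 27 to 101 and 207 to 386, and the ratio of the means was 4.84. Without the filter the log2 change of FPKM + 1 was 0.59 (limma adjusted p = 0.0145, and 0.00545 with the replicate block). Me1, the cytosolic malic enzyme that yields NADPH, was also under the filter, at 0.352 ± 0.121 FPKM in IL-10+ cells, against 0.0937 ± 0.0829 FPKM in IL-10- cells (SD, n = 4). Without the filter its limma adjusted p was 0.0558, and 0.0181 with the block.

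Nfe2l1, the relative of Nfe2l2 that drives proteasome genes, did not differ between the sorted groups beyond its spread (63.6 ± 19.0 and 59.9 ± 23.6 FPKM, SD, n = 4, limma adjusted p = 0.819) but split by replicate number. It stood at 78.4 to 81.6 FPKM in the 4 libraries of replicates 1 and 2 and at 38.8 to 48.7 FPKM in the 4 of replicates 3 and 4. Over the same libraries the mean of Prdx1 was 91.5 FPKM in replicates 1 and 2 and 158.1 FPKM in 3 and 4, and that of Txnrd1 27.3 and 44.9 FPKM.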
